A study of Mus musculus with 16 samples.

Results

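Long H3K36me3 domains are stretches of at least 20 kb covered without a break by the pooled H3K36me3 regions of 2 tumour genotypes. Neither genotype alone need cover a domain without a break. They were chosen by measured values, the H3K36me3 regions themselves, by pooling the deposited H3K36me3 regions of both genotypes on chromosomes 1 to 19, joining only regions that overlapped or touched and keeping merged domains of at least 20 kb. The joining gave 82831 merged domains, of which 1124 were at least 20 kb wide. These 1124 long domains were 1.36% of the merged domains by number and held 17.5% of their summed width, 32.1 of 183 Mb.

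The tissue was medulloblastoma, a tumour of the cerebellum, taken from mice at postnatal day 13. The first genotype was a double knockout of Sufu and Spop (DKO), and the second overexpressed SmoM2, an activated form of the Hedgehog signal transducer Smoothened. Chromatin immunoprecipitation and sequencing was run against Gli2, H3K27ac and H3K36me3, and each genotype has 2 libraries from every antibody plus 2 from input DNA. The 12 immunoprecipitated libraries were represented by 6 region lists, 1 for each genotype and antibody. The labels give neither the promoter of SmoM2 nor the Cre driver of the knockout, and do not say whether the 2 libraries of a group came from separate animals. Both genotypes are tumours, and untransformed cerebellum was not analysed here.

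H3K36me3 is deposited by SETD2, a methyltransferase that travels with elongating RNA polymerase II, and so lies over the bodies of transcribed genes. H3K27ac marks active promoters and enhancers. Gli2 is the transcription factor that activates Hedgehog target genes. Sufu holds Gli proteins back, and Spop presents them to the Cul3 ubiquitin ligase for destruction.

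With 1 list for each genotype, no comparison below has a replicate check and none could be tested over samples. The lists hold no read numbers, so the depth behind each region is unknown. On chromosomes 1 to 19 the H3K36me3 list held 65150 regions over 163 Mb in DKO and 87539 regions over 137 Mb in SmoM2. The H3K27ac list held 28987 regions in DKO and 21211 in SmoM2, and the Gli2 list held 1397 peaks in DKO and 136 in SmoM2. Positions are those of the mouse build mm9. Genes at these positions are not analysed here, and domains are named by position.

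The long domains were mostly close to the minimum width. Their widths had quartiles of 22.5, 25.6 and 31.7 kb. Between 20 and 25 kb lay 514 domains (45.7%), between 25 and 30 kb 278 (24.7%), between 30 and 50 kb 295 (26.2%), and 37 domains (3.29%) were at least 50 kb wide. The 3 domains just above the minimum were 20.031 to 20.058 kb wide and were covered over 95.1 to 96.4% in DKO and 88.1 to 94.3% in SmoM2. The 3 merged domains just below it were 19.979 to 19.993 kb wide and were covered over 96.0 to 100% in DKO and 77.3 to 96.9% in SmoM2.

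The widest domain lay at chr4:138945099-139045768 and measured 101 kb. In DKO it was a single region, and in SmoM2 it was 2 regions. H3K36me3 covered 101 kb of it in DKO and 99.7 kb in SmoM2. The next widest were chr5:145536387-145622340 with 86.0 kb and chr7:80570355-80656036 with 85.7 kb. The chromosome 5 domain held 1 piece in DKO and 3 in SmoM2, and the chromosome 7 domain held 1 piece in DKO and 7 in SmoM2. Over the 10 widest domains, the covered share ran between 97.4 and 100% in DKO and between 87.2 and 99.0% in SmoM2, so the widest domains were marked nearly throughout in both genotypes. All 10 had H3K27ac inside or within 10 kb of their edges in both genotypes, 0.733 to 1.99 kb in DKO and 0.441 to 2.20 kb in SmoM2. None of the 10 had a Gli2 peak there in either genotype. Over all long domains, H3K27ac was present there in 74.5% in DKO and 62.9% in SmoM2. For those at least 50 kb wide it was 91.9% in DKO and 70.3% in SmoM2. A Gli2 peak was present there in only 2.67% of all long domains in DKO and 0.712% in SmoM2.

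**Figure D1:**
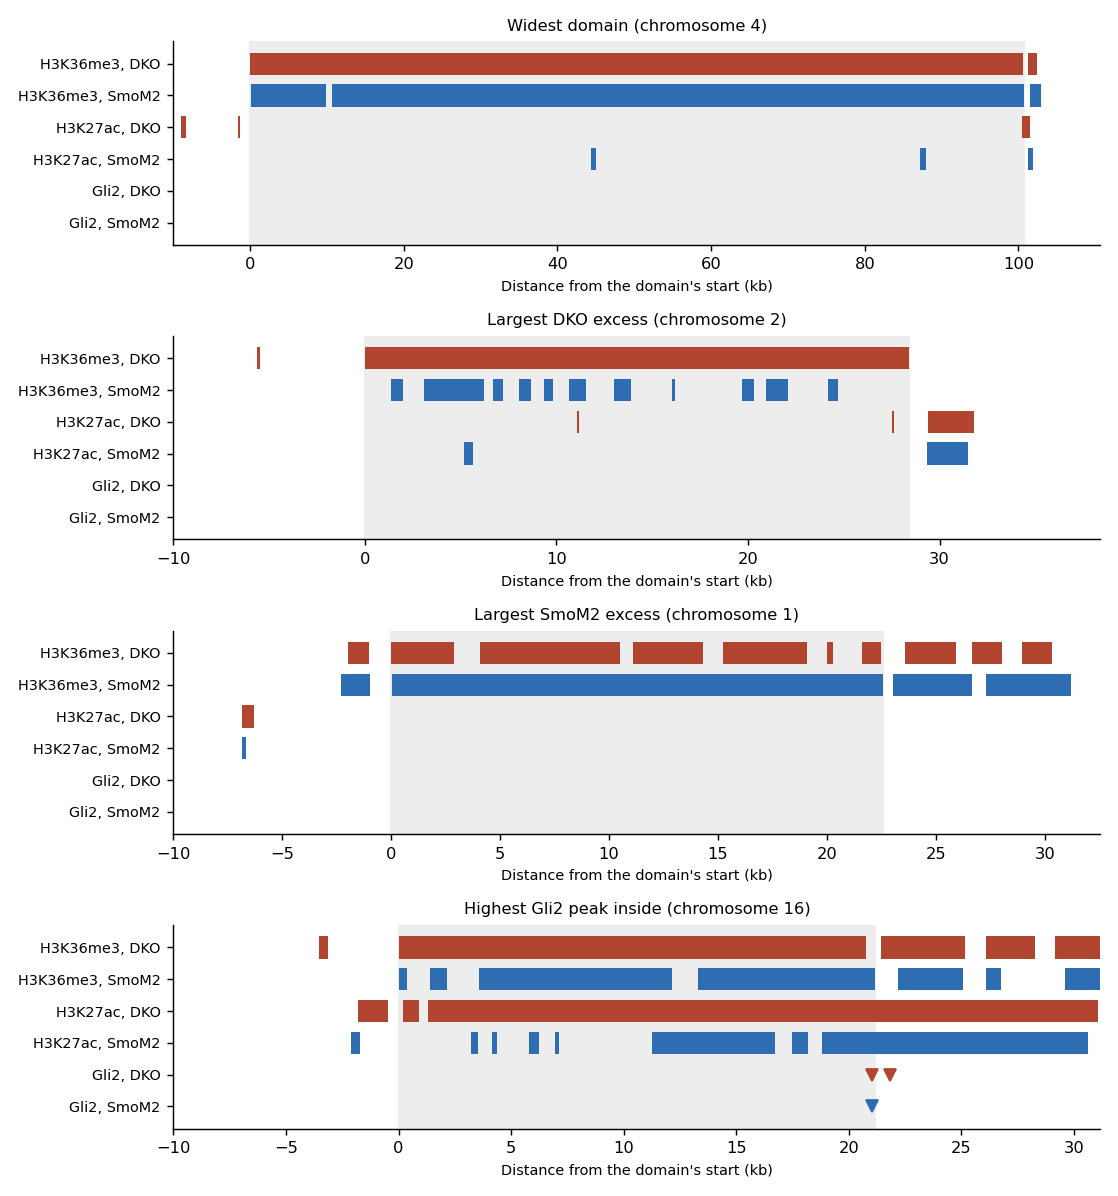
Maps of 4 long domains, with distance from the domain's start in kb on the horizontal axis, grey shading over the domain and bars for the deposited regions of each mark (triangles for Gli2 peaks) in DKO (red) and SmoM2 (blue). The widest domain holds 1 H3K36me3 piece in DKO and 2 in SmoM2, and the domain with the highest Gli2 peak inside carries H3K27ac over 97.1% of its width in DKO and 45.9% in SmoM2.

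Long domains were found on all 19 chromosomes at unequal density. There were 4.55 for each 10 Mb over chromosomes 1 to 19. The density was 7.63 for each 10 Mb on chromosome 11 (93 domains), 7.01 on chromosome 5 (107 domains) and 6.29 on chromosome 9. It was 2.00 on chromosome 14 (25 domains), 2.51 on chromosome 3 and 2.64 on chromosome 18. Neighbouring long domains lay a median of 554 kb apart. Of 1105 pairs of neighbours on the same chromosome, 233 were at most 100 kb apart and 48 at most 10 kb apart.

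The rule that chose the domains used the H3K36me3 regions of both lists, so their coverage and pieces are given as a description. Summed over the long domains, H3K36me3 covered 31.4 Mb (97.9% of their width) in DKO and 28.9 Mb (90.2%) in SmoM2, a ratio of 1.08. The same ratio was 1.15 in merged domains of 5 to 20 kb and 1.30 in those under 5 kb. No long domain lacked H3K36me3 in either genotype. By contrast, 21926 of 73679 merged domains under 5 kb had none in DKO and 19887 had none in SmoM2. The long domains took 19.3% of the DKO list's bases and 2.58% of its regions, and 21.1% of the SmoM2 list's bases and 5.82% of its regions.

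Domain by domain, the covered share had a median of 98.6% in DKO (5th to 95th percentile 92.3 to 100%, lowest 77.3%) and 91.2% in SmoM2 (76.6 to 98.9%, lowest 33.7%). The median difference was 6.95 percentage points. At least 95% of the width was covered in 973 domains (86.6%, Wilson 95% interval 84.4 to 88.4%) in DKO and in 291 (25.9%, 23.4 to 28.5%) in SmoM2, against 47.7% of all merged domains in DKO and 36% in SmoM2. These intervals, here and below, cover counting error only. More bases were covered in DKO in 997 domains (88.7%, against 58.7% of all merged domains). More were covered in SmoM2 in 127 (11.3%, against 41.2% of all merged domains). Coverage is what the rule used, and 89.0% of all merged domains are under 5 kb. Nothing is therefore read from the distance of these shares to the background. Across the 1124 domains, which share their libraries and their rule, the covered shares of DKO and SmoM2 had a Pearson r of 0.00432 and a Spearman rho of 0.00704.

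Differences past 1.5-fold were few. The covered length was at least 1.5-fold higher in DKO in 9 long domains (0.801%, against 40.7% of all merged domains). It was at least 1.5-fold higher in SmoM2 in 0 long domains (against 32.1% of all merged domains). At least 2-fold, the counts were 2 in DKO (against 34.6% of all merged domains) and 0 in SmoM2 (against 29.7%). Every base of a long domain lies in a region of at least 1 list by construction, so nothing is read from the distance of these counts to the background. With H3K36me3 regions of −log10 q at least 3 alone, where q is the authors' adjusted p for a region, the count was 189 in DKO and 4 in SmoM2.

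The domain with the largest DKO excess lay at chr2:26312332-26340729 and was 28.4 kb wide. In DKO 1 region covered all of it, and in SmoM2 11 pieces covered 9.56 kb (33.7%). Its H3K27ac differed little by comparison, with 2.62 kb inside and within 10 kb in DKO and 2.59 kb in SmoM2. At chr10:76499946-76545119, 45.2 kb wide, 1 region covered the whole width in DKO and 17 pieces covered 21.8 kb (48.2%) in SmoM2. At chr6:29389861-29411534 the SmoM2 pieces covered 52.1% of 21.7 kb, and H3K27ac inside and within 10 kb came to 6.96 kb in DKO and 4.12 kb in SmoM2. The other 2 of the 5 largest DKO excesses were chr17:12875752-12898352 and chr1:13162225-13182940. Their SmoM2 shares were 57.8% and 57.7%, and both held 1 region in DKO and 8 in SmoM2. The longest SmoM2 piece of the 5 domains was between 2.74 and 5.69 kb wide.

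The largest SmoM2 excess lay at chr1:138043577-138066135, 22.6 kb wide. In DKO 6 pieces covered 17.4 kb (77.3%) of it, and in SmoM2 1 region covered 22.5 kb (99.8%). At chr6:113695406-113727704, 6 pieces covered 79.0% in DKO and 1 region covered 98.9% in SmoM2. At chr2:179907665-179933902, 5 pieces covered 20.6 kb in DKO and 2 pieces covered 25.2 kb in SmoM2, and this domain also had 4.17 kb of H3K27ac in DKO and 5.70 kb in SmoM2. Its right flank held 2 Gli2 peaks in DKO and 1 in SmoM2. The SmoM2 excess of the fifth domain by size, chr5:30492796-30513741, was 11.4 percentage points, with 88.0% covered in DKO and 99.4% in SmoM2.

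**Figure D2:**
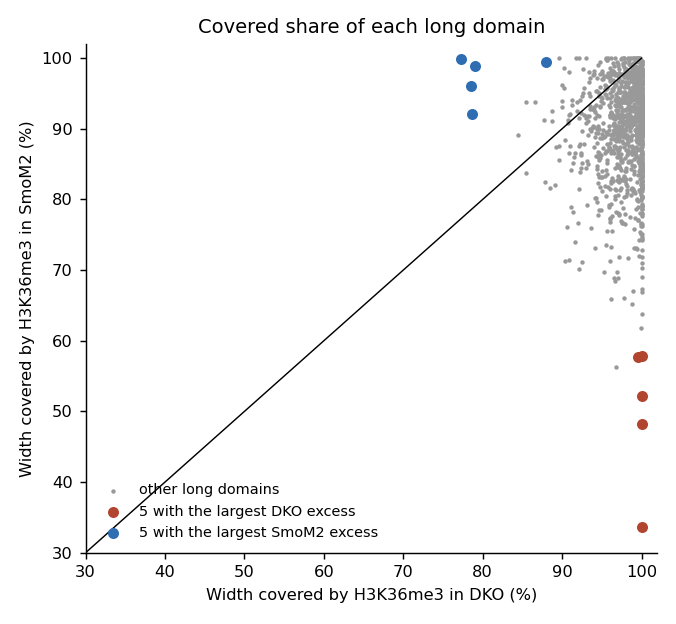
Share of each long domain's width covered by H3K36me3 in DKO (horizontal axis, %) and in SmoM2 (vertical axis, %), 1 point for each of 1124 domains, with the line of equal shares. The points below the line are the 997 domains with more bases in DKO, and the 127 above it have more in SmoM2.

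The pieces differed more than the covered length. The long domains were built from 1684 regions in DKO and 5092 in SmoM2, a ratio of 0.331. The ratio was 0.493 in merged domains of 5 to 20 kb, 0.864 in those under 5 kb and 0.744 over all merged domains. The median was 1 piece in DKO and 4 in SmoM2, and the most were 6 in DKO and 17 in SmoM2. A single piece made up 724 domains (64.4%, 61.6 to 67.2%) in DKO, against 69.1% of all merged domains, and 100 (8.90%, 7.37 to 10.7%) in SmoM2, against 59.5% of all merged domains. At least 5 pieces were counted in 10 domains in DKO and in 497 in SmoM2. DKO had fewer pieces in 958 domains (85.2%) and more in 33 (2.94%), and 133 (11.8%) had the same number. One region of at least 20 kb was present in 859 domains (76.4%) in DKO and in 256 (22.8%) in SmoM2, and in both genotypes in 225. Such a region was present in DKO only in 634 domains and in SmoM2 only in 31. These domains pass the minimum width through 1 list, so fewer pieces in that list partly follow from the choice. For regions of at least 20 kb, at least 5 pieces and fewer or more pieces, shares over all merged domains are not given here. Nothing about long domains in particular is read from these counts.

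The lists differ in the shortest gap they contain, and this moves with the pieces. Over chromosomes 1 to 19, no 2 H3K36me3 regions of the DKO list were closer than 605 bases, and none of the SmoM2 list were closer than 449. Within the long domains there were 560 gaps in DKO with a median of 699 bases and 3968 gaps in SmoM2 with a median of 574 bases. Of the SmoM2 gaps, 2253 (56.8%, 55.2 to 58.3%) were shorter than any gap in the DKO list. With those gaps closed in the same 1124 domains, there were 1684 pieces in DKO and 2839 in SmoM2, a ratio of 0.593. A single piece then made up 724 domains in DKO and 338 (30.1%) in SmoM2, and DKO had fewer pieces in 646 domains (57.5%) and more in 128 (11.4%). The covered length ratio became 1.04. With all gaps of at most 1 kb closed, the ratio of pieces was 0.756, and 1082 domains (96.3%) in DKO and 803 (71.4%) in SmoM2 were a single piece. The pieces also differ with the list that draws the domains, but there the direction is set by the drawing. A domain drawn from 1 list is a single region of that list, because no 2 of its regions touch. Over the 263 domains of at least 20 kb drawn from the SmoM2 list alone, the ratio of pieces was 1.32 and the covered length ratio 0.984. Over domains drawn from the DKO list alone, the ratio of pieces was 0.232. Nothing is read from the direction of these ratios.

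**Figure D3:**
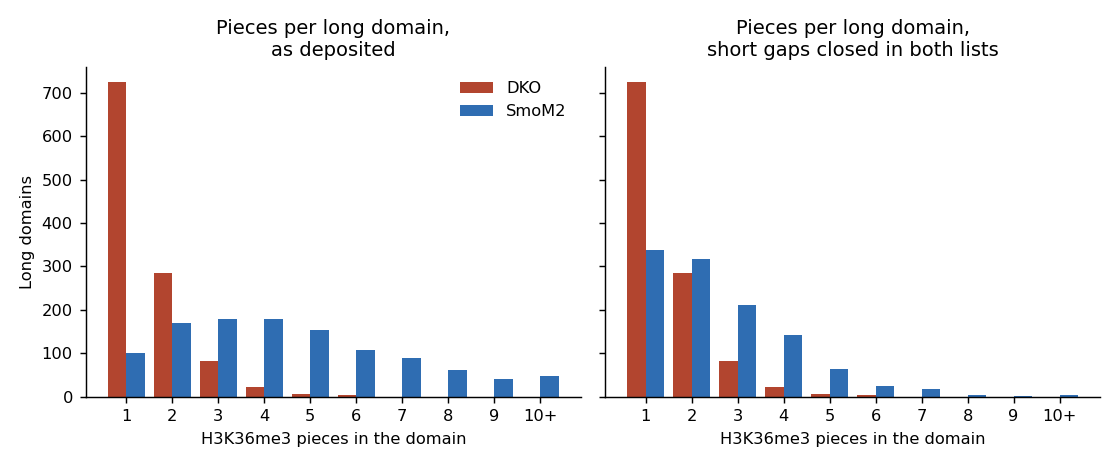
Number of long domains (vertical axis) by the number of H3K36me3 pieces they hold (horizontal axis), in DKO (red) and SmoM2 (blue), as deposited (left) and after gaps shorter than the smallest DKO gap were closed in both lists (right). Single-piece domains number 724 in DKO and 100 in SmoM2 on the left, and 724 in DKO and 338 in SmoM2 on the right.

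The ends of the long domains are set by the same regions that the rule joined, so 1 list reaches every edge by construction and the distance of the other is a description. Over the 2248 edges, the outermost H3K36me3 base of DKO and that of SmoM2 lay a median of 206 bases apart. They were at most 500 bases apart at 1753 edges (78.0%) and more than 1 kb apart at 128 (5.69%), with 3697 bases the largest distance. The DKO end was further out at 1271 edges (56.5%) and the SmoM2 end at 971 (43.2%). The authors' fold enrichment over background, weighted by piece length, had a median over the domains of 4.18 (5th to 95th percentile 3.69 to 5.16) in DKO and 4.07 (3.66 to 4.72) in SmoM2. The length-weighted mean of the whole list was 3.79 in DKO and 3.81 in SmoM2. Across the 1124 domains the fold enrichment in DKO and in SmoM2 had a Pearson r of 0.854 and a Spearman rho of 0.810. Both values of a domain come from the same stretch of sequence, and the caller's settings for each list are not given.

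H3K27ac, which the rule did not use, lay beside the long domains more than inside them. In DKO it covered 10.3 bases of each kb inside and 54.1 bases of each kb in the 10 kb flanks. In SmoM2 it covered 5.78 bases of each kb inside and 38.6 in the flanks. Over the whole of chromosomes 1 to 19 the cover was 10.1 bases of each kb in DKO and 7.56 in SmoM2. In merged domains of 5 to 20 kb the flanks held 45.8 bases of each kb in DKO and 33.7 in SmoM2, and the insides 12.1 in DKO and 7.45 in SmoM2.

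By distance from the edge, H3K27ac was densest 1 to 2 kb outside. There it covered 10.5% of bases in DKO and 7.28% in SmoM2. In the first kb outside it covered 4.71% in DKO and 3.18% in SmoM2, and 9 to 10 kb outside 3.77% in DKO and 2.80% in SmoM2. On the inner side it covered 2.14% in DKO and 1.45% in SmoM2 over the first kb, and 0.899% in DKO and 0.451% in SmoM2 at 9 to 10 kb. H3K36me3 covered 97.8% of bases in DKO and 86.4% in SmoM2 from 1 to 2 kb inside, against 35.4% in DKO and 29.4% in SmoM2 from 1 to 2 kb outside. In the first kb outside it covered 11.6% in DKO and 12.2% in SmoM2, a dip that the smallest gaps of the lists and the joining rule build in.

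**Figure D4:**
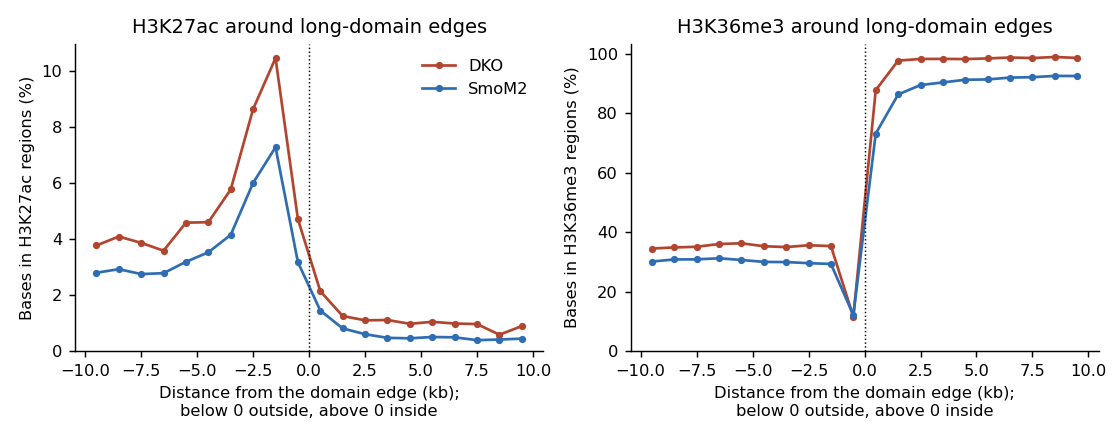
Share of bases (vertical axis, %) in H3K27ac regions (left) and H3K36me3 regions (right) in 1 kb steps of distance from the edges of the long domains (horizontal axis, kb, below 0 outside and above 0 inside), in DKO (red) and SmoM2 (blue). H3K27ac peaks 1 to 2 kb outside the edge at 10.5% in DKO and 7.28% in SmoM2.

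Counted by domain, H3K27ac was present inside or within 10 kb of 837 long domains (74.5%, 71.8 to 76.9%) in DKO, against 38.8% of all merged domains. In SmoM2 it was present there for 707 (62.9%, 60.0 to 65.7%), against 31.7% of all merged domains. The shares for merged domains of 5 to 20 kb were 57.1% in DKO and 47.6% in SmoM2. These windows lengthen with the domain, and the part of window length in the higher shares was not tested. By width class the share in DKO was 70.4, 72.7, 81.0 and 91.9%, and in SmoM2 59.9, 61.9, 68.1 and 70.3%, for 20 to 25, 25 to 30, 30 to 50 and at least 50 kb. H3K27ac was found there in both genotypes for 686 domains (61.0%, against 28.6% of all merged domains) and in neither for 266 (23.7%, against 58.1%). It was found in DKO alone for 151 (13.4%, against 10.2%) and in SmoM2 alone for 21 (1.87%, against 3.1%), and the share for DKO alone was near the background.

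H3K27ac in the flanks lay more often on 1 side than on both. In DKO, 564 domains (50.2%) had H3K27ac in 1 flank, 232 (20.6%) in both and 328 (29.2%) in none, against 29.3, 9.11 and 61.6% of all merged domains. In SmoM2, 506 (45.0%) had it in 1 flank, 167 (14.9%) in both and 451 (40.1%) in none, against 25.2, 6.23 and 68.6% of all merged domains. Among domains with H3K27ac in a flank, the share with it in 1 flank was 70.9% in DKO and 75.2% in SmoM2, against 76.3% in DKO and 80.2% in SmoM2 over all merged domains. In 417 domains each genotype had H3K27ac in exactly 1 flank, and in 416 of these (99.8%, against 97.7% of such merged domains) it was the same flank. The nearest H3K27ac region outside a domain lay within 2 kb of an edge for 400 domains (35.6%) in DKO and 315 (28.0%) in SmoM2. The same share over all merged domains is not given here, so this closeness is not read as particular to long domains. H3K27ac overlapped the domain itself in 228 domains (20.3%, 18.0 to 22.7%) in DKO, against 4.29% of all merged domains. It did so in 168 (14.9%, 12.98 to 17.2%) in SmoM2, against 2.9% of all merged domains. These shares compare domains of unlike width. For each kb of width the order was the other way. In DKO, H3K27ac covered 10.3 bases inside long domains, against 12.7 inside all merged domains. In SmoM2 it covered 5.78, against 8.14.

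The H3K27ac length inside the long domains and within 10 kb of them was 1.47 times as high in DKO as in SmoM2, against 1.33 over all merged domains. The ratio was 1.40 in the flanks (1216 kb in DKO and 868 kb in SmoM2) and 1.78 inside (331 kb in DKO and 186 kb in SmoM2), against 1.32 and 1.56 over all merged domains. DKO had more H3K27ac bases in 667 long domains (59.3%, against 30.2% of all merged domains) and SmoM2 in 191 (17.0%, against 11.7% of all merged domains). Most merged domains hold no H3K27ac in the window. Among the 858 long domains with H3K27ac in either genotype, the length was higher in DKO in 77.7% and in SmoM2 in 22.3%, against 72.1% and 27.8% of the merged domains with H3K27ac there. The length was at least 1.5-fold higher in DKO in 439 of the 858 (51.2%, against 49.2% of all merged domains with H3K27ac there). It was at least 1.5-fold higher in SmoM2 in 57 (6.64%, against 15% of all merged domains with H3K27ac there). So the share past 1.5-fold in DKO was near the background. Across the 1124 domains, the difference in H3K36me3 coverage and the difference in H3K27ac length between the genotypes had a Pearson r of 0.0704 and a Spearman rho of -0.00981. H3K27ac length itself had an r of 0.915 between DKO and SmoM2.

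A small group of long domains was acetylated over much of its length. In 10 domains (0.890%, against 2.37% of all merged domains) at least 20% of the width carried H3K27ac in 1 genotype or the other. This limit was chosen after the values were seen. The 10 domains held 153 kb of H3K27ac in DKO and 64.4 kb in SmoM2, which is 46.2% of all H3K27ac bases inside long domains in DKO and 34.7% in SmoM2. The limit was met by all 10 in DKO and by 4 in SmoM2, so 6 domains entered through DKO alone and their excess in DKO follows from the choice. The 4 that met it in both genotypes also had more H3K27ac bases in DKO, with no test. All 10 were a single H3K36me3 piece in DKO, as were 64.4% of all long domains, and held 2 to 7 pieces in SmoM2. The median was 1 piece in DKO and 4 in SmoM2, both in these 10 and in the other 1114 long domains. Without these 10, the inside ratio of 1.78 became 1.47. The 10 were chosen by their H3K27ac, 6 of them through DKO alone, so nothing is read from this fall. The remaining long domains had more H3K27ac inside in DKO in 177 and in SmoM2 in 87. The same share over all merged domains is not given here.

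The domain at chr15:85512423-85539110, 26.7 kb wide, carried 25.8 kb of H3K27ac inside in DKO and 17.8 kb in SmoM2, and its left flank was acetylated over its full 10 kb in both. At chr16:44481678-44502853 H3K27ac covered 97.1% of 21.2 kb in DKO and 45.9% in SmoM2, and it ran on into the right flank over 9.87 kb in DKO and 9.45 kb in SmoM2. At chr9:57789093-57813668 it covered 18.1 kb in DKO and 10.6 kb in SmoM2. The widest of the group, chr5:125539638-125591307 with 51.7 kb, carried 15.8 kb in DKO and 6.73 kb in SmoM2. The inside lengths of these 10 differed most, in kb, at a pair of domains on chromosome 8. At chr8:24523553-24546415 the inside length was 17.6 kb in DKO and 2.62 kb in SmoM2, and at chr8:123082379-123107545 it was 17.1 kb in DKO and 3.78 kb in SmoM2. Of the 10 domains, 4 had a Gli2 peak inside or within 10 kb in DKO and 2 in SmoM2, in a group chosen after its values were seen, against 2.2% of all merged domains in DKO and 0.269% in SmoM2. Both marks were measured in whole tumour tissue, so whether they shared the same cells was not tested.

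**Figure D5:**
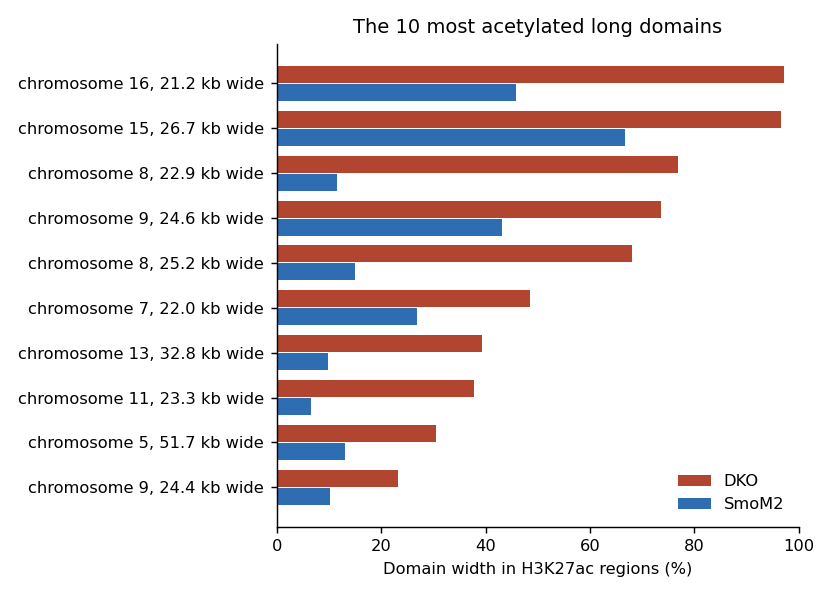
Share of the width in H3K27ac regions (horizontal axis, %) of the 10 long domains with at least 20% in either genotype, DKO (red) above SmoM2 (blue) for each domain, with no error bars because each bar is 1 list. Only 4 of the 10 reach 20% in SmoM2, so for the other 6 the longer DKO bar follows from the choice of domains.

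Few long domains had a Gli2 peak inside. In DKO 10 of the 1124 domains (0.890%, 0.484 to 1.63%) had a Gli2 peak inside, against 0.0567% of all merged domains. In SmoM2 3 domains (0.267%, 0.0908 to 0.782%) had one, against 0.0181% of all merged domains. For their length, that is 3.12 peaks for each 10 Mb inside long domains in DKO and 0.935 in SmoM2, while the chromosomes as a whole held 5.65 in DKO and 0.550 in SmoM2. The density inside was thus lower than over the chromosomes in DKO and higher in SmoM2, where it rests on 3 peaks. Counting the 10 kb flanks, 30 domains (2.67%, 1.88 to 3.78%) had a Gli2 peak in DKO, against 2.2% of all merged domains, and 8 (0.712%, 0.361 to 1.40%) in SmoM2, against 0.269%. The DKO share was near the background. The flanks held 12.6 peaks for each 10 Mb in DKO and 2.33 in SmoM2. The DKO Gli2 list is the longer one, and with it cut to its 136 strongest peaks, the number of SmoM2 peaks, 5 domains had one inside or within 10 kb in DKO, against 8 in SmoM2.

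The strongest peak inside a long domain was at chr16:44502547-44502855, at the right end of the heavily acetylated chromosome 16 domain. It overlapped an H3K36me3 region of SmoM2 but none of DKO. In DKO it had an authors' fold enrichment of 43.5 and a −log10 q of 140, which ranked it 9 in its list. The SmoM2 list held an overlapping peak with a fold of 7.33 and rank 64. A second DKO peak with a fold of 12.2 lay 478 bases outside the same edge. The next strongest inside peak, chr5:125591230-125591446, ran across the right end of the 51.7 kb acetylated domain and had a fold of 16.3 in DKO. Its summit lay just outside the domain. The remaining DKO peaks inside had folds of 4.54 to 12.2. Only 1 of them, chr5:119197157-119197291, also overlapped a SmoM2 peak (fold 8.16 in DKO and 5.04 in SmoM2), and it overlapped no H3K27ac in either genotype. The SmoM2 list had 1 inside peak that no DKO peak overlapped, chr5:134854786-134854901, with a fold of 4.73. It overlapped H3K36me3 of DKO but not of SmoM2. The DKO peaks at chr3:101381416-101381542, chr5:121612276-121612657 and chr7:150745047-150745347 overlapped H3K36me3 of SmoM2 but not of DKO. Of the peaks inside, 6 of 10 in DKO and 2 of 3 in SmoM2 overlapped H3K27ac of the same genotype. The same share over all Gli2 peaks of each list is not given here.

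In the flanks lay 27 Gli2 peaks in DKO and 5 in SmoM2. Of these, 21 in DKO and 4 in SmoM2 overlapped H3K27ac of the same genotype. The highest DKO fold in a flank was 30.3 (rank 24), at chr8:90840188-90840682, 7489 bases from a domain, where the SmoM2 list had a peak with a fold of 9.16. The next, with a fold of 29.9 (rank 27), was at chr9:44527834-44528089, 2047 bases from a domain, with no SmoM2 peak. Of the 5 SmoM2 flank peaks, 4 overlapped a DKO peak. The shares of all Gli2 peaks that overlap H3K27ac or the other list are not given here. Nothing is therefore read about Gli2 peaks at long domains against those elsewhere. Folds come from lists made separately, so they rank peaks within a list and give no difference between genotypes.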

How the data were processed

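Region lists of Gli2, H3K27ac and H3K36me3 in DKO and SmoM2 medulloblastomas were used, 1 deposited list for each genotype and antibody, which the labels assign to both of its libraries. Groups came from the genotype and antibody in the labels. The tools named by the submitters' processing notes are MACS2, BWA, bedtools and Trimmomatic 0.36, and the build is mm9. The sources used here do not give their settings or whether reads were pooled or peaks merged. The extraction protocol names an Olig2 antibody, which no sample label lists. Fold enrichment, a ratio to background, and −log10 of the q-value are the authors' own for each region. The score column that the authors deposited equals the −log10 q times 10. These were used to describe, rank or filter regions within a list.

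H3K36me3 regions of both lists on chromosomes 1 to 19 were pooled and joined where they overlapped or touched. A piece is a deposited region within a domain, and a gap is the unmarked stretch between neighbouring pieces of the same list. Coverage, pieces, H3K27ac and Gli2 were then counted inside and within 10 kb of the edges, with an overlap of at least 1 base. Where flanks of neighbouring domains overlap, H3K27ac counts for each. Shares have Wilson 95% intervals. The counting was tested on simulated data and was right in 200 of 200 sets. Python 3.11.15, numpy 2.4.6, pandas 2.3.3 and matplotlib 3.10.9 were used.

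Named domains are the 10 widest, the 5 with the largest difference of covered share in each direction, the 5 with the most H3K27ac, those with Gli2 inside and the 3 on each side of the minimum width. A few of these are given in full. The heavily acetylated group was added after its values were seen. The domains, the rule and the lists were chosen with earlier results of these data known. No genome or annotation of build mm9 was used, so no sequence is printed. Alternatives were other widths, joining distances, flanks, overlaps, folds and −log10 q minimums.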

Additional observations from a re-analysis of the deposited data

Results flagged for a closer look

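Chromosome X was outside the comparisons above. With the same rule it held 4 long H3K36me3 domains, and H3K36me3 covered 84.4 kb of them in DKO and 73.8 kb in SmoM2. The pieces numbered 5 in DKO and 18 in SmoM2. The covered share ran between 96.5 and 100% in DKO and between 79.7 and 96.4% in SmoM2, and all 4 had more bases in DKO. None of the 4 had a Gli2 peak inside or within 10 kb in either genotype. The 4 were flagged only because they lie in data that the comparisons left out.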

How the results depend on the processing

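No paired analysis was possible because the replicates of a genotype and antibody share 1 list, so no replicate could be left out either. Depth is unknown and limits every count. Of 74 planned values, 35 kept within 1.5 times (counts), 1.1 times (ratios) or the interval (shares), 37 moved further and 2 reversed. With a minimum width of 15 kb there were 2090 domains, 38 with coverage at least 1.5-fold higher in DKO, H3K27ac in the window of 71.4% in DKO and 60.0% in SmoM2, and Gli2 in 55 in DKO. With 30 kb there were 332 domains, a piece ratio of 0.292, 1 domain past 1.5-fold in DKO, H3K27ac at 82.2% in DKO and 68.4% in SmoM2, and Gli2 at 9 in DKO and 2 in SmoM2. Joining regions at most 1 kb apart gave 2301 domains, a piece ratio of 0.522, 96 past 1.5-fold in DKO and 4 in SmoM2, and Gli2 at 67 in DKO. Domains of the SmoM2 list alone numbered 263, with the covered length ratio at 0.984 and the piece ratio at 1.32, both reversed. There 0 passed 1.5-fold in DKO. Each such domain is a single SmoM2 region, so the direction of these values is set by the drawing. Domains of the DKO list alone, each a single DKO region, had a piece ratio of 0.232. H3K36me3 regions of −log10 q at least 2 gave 20 past 1.5-fold in DKO. At least 3 gave a covered length ratio of 1.21, a piece ratio of 0.467, and 189 past 1.5-fold in DKO and 4 in SmoM2. A fold of 2 left 2 in DKO. For the other settings the share of all merged domains past 1.5-fold is not given here, and nothing is read from these counts.

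H3K27ac lay in the window of 60.7% in DKO and 50.4% in SmoM2 with 5 kb flanks. With 20 kb flanks it was 86.1% in DKO and 76.5% in SmoM2, with Gli2 at 57 in DKO. An overlap of 200 bases gave 67.9% in DKO and 56.5% in SmoM2. H3K27ac of −log10 q at least 5 gave 39.1% in DKO and 23.8% in SmoM2, and a length ratio of 1.84. Gli2 of −log10 q at least 10 left 2 domains in SmoM2. Other settings were chosen after seeing the data. With gaps shorter than the smallest DKO gap closed before the domains were drawn, the piece ratio was 0.739 and 1 domain passed 1.5-fold in SmoM2. With gaps of at most 1 kb closed there were 2143 domains, a piece ratio of 0.679, and 34 past 1.5-fold in DKO and 3 in SmoM2. H3K27ac of −log10 q at least 3 gave a length ratio of 1.62. The DKO Gli2 list cut to the SmoM2 number left 5 domains. The causes of these shifts were not tested, except for what the construction sets. A smaller width or wider window admits more domains or peaks, and domains of 1 list are single regions of it. The H3K27ac length ratio ran between 1.41 and 1.84 over its 7 alternatives, above 1 in each.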

Other observations

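Within the long domains, H3K27ac was compared on bases covered and not covered by H3K36me3 pieces. In DKO it covered 14.3 bases of each kb of uncovered sequence, against 10.2 of each kb of covered sequence. In SmoM2 it covered 11.8 bases of each kb of uncovered sequence, against 5.13 of each kb of covered sequence. Counted over gaps alone, which leaves out the ends of the domains, the values were 9.71 in DKO, below the covered value there, and 9.59 in SmoM2, above it. Across the 1124 domains, width and the number of pieces had a Pearson r of 0.049 in DKO and 0.253 in SmoM2. The median covered share by width class, from 20 to 25 kb up to at least 50 kb, was 98.3, 98.6, 98.8 and 99.0% in DKO and 90.6, 91.0, 91.9 and 93.3% in SmoM2. The values of each genotype share its libraries, the caller's settings for each list are not given, and none was compared over samples.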
